A study of Mus musculus with 8 samples.

Results

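The 5 primary granule genes of immature myeloid cells described here were followed in splenic tumors that grew from injected FL5.12 cells and in the cells before injection. They are Mpo, Prtn3, Elane, Ctsg and Ms4a3, and they were chosen by name: every probe set whose platform symbol is one of the 5 was taken. Each gene had 1 probe set, so that the group held 5 of the 22690 probe sets on the array, or 5 of the 12393 genes with a probe set of 1 symbol, and none of the 5 carried a second symbol. FL5.12 is an interleukin-3-dependent mouse line described in the labels as pro-B cells. The parental cells, and therefore also the tumors that arose from them, carried Bfl-1DC and p53DD by stable transfection, and they were grown with medium conditioned by WEHI-3B cells as the interleukin-3 source. Tumors came from the spleens of 3 nude mice that had received the cells by intravenous injection. Nude mice lack a thymus but keep their own myeloid cells, and the labels do not say whether host cells were removed. The labels give the same culture conditions for the tumor samples as for the parental line, without saying how long tumor cells were cultured, if at all. RNA of the parental line and of each tumor was hybridised to 2 Affymetrix arrays, which gave 8 arrays. The labels do not say whether the 2 arrays of a source came from separate cultures or extractions, so that the spread between them may be technical. The labels give no age for the mice.

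Primary granules, also called azurophil granules, are filled at the promyelocyte stage, before the secondary and tertiary granules of the maturing neutrophil appear. Myeloperoxidase, encoded by Mpo, uses hydrogen peroxide to make hypochlorous acid. Proteinase 3 (Prtn3), neutrophil elastase (Elane) and cathepsin G (Ctsg) are related serine proteases that are stored with it after activation by the dipeptidyl peptidase Ctsc. Ms4a3 encodes a membrane protein with several membrane spans that is known from granulocyte and monocyte progenitors, and it marks the same stage rather than being a granule enzyme. These genes are known targets of the myeloid transcription factors PU.1 (Spi1) and C/EBP.

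The MAS5 signal is a brightness of 1 probe set, so levels are compared below for 1 gene between arrays and never between genes. Summed signals of a list, also given, are set mostly by its brightest probe sets. All tests were made with limma on log2(signal + 16), and on this scale the change of a dim gene comes out too small. Probe sets were tested if at least 2 of the 8 arrays gave a signal over that array's 40th percentile, which lay at 15.6 to 20.7. Other probe sets are called below the testing limit. All 5 members were among the 14893 probe sets tested. Elane was over that percentile on the 6 tumor arrays and on neither parental array, so that it was tested only through the group in which it is high. In bulk RNA, more cells of a type and more RNA per cell cannot be told apart.

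Mpo was high in every tumor and near the floor in the parental cells. Its signal was 12.1 and 16.4 on the parental arrays, 1802 and 1578 in tumor 1, and 2727 and 2669 in tumor 2. Tumor 3 gave 1560 and 3401. All 6 tumor arrays lay far above both parental arrays, tumor 2 lay above tumor 1, and the arrays of tumor 3 spanned both. The parental mean was 14.2 ± 3.0 (SD, n = 2 arrays) and the tumor mean 2290 ± 530 (SD, n = 3 tumors). The difference was 6.19 ± 0.23 (SE) on the scale of log2(signal + 16), with limma's adjusted p = 0.000279. Among all probe sets tested, 0.698% passed in either direction in this comparison and 0.497% upward, and 1 of the 5 members, Mpo, did. Taken singly against the parental arrays, tumors 1, 2 and 3 differed by 5.82 ± 0.33, 6.49 ± 0.33 and 6.27 ± 0.33, with adjusted p of 0.000172, 0.000135 and 0.000124. In that fit the spread is that between duplicate arrays, and 1.73%, 0.974% and 1.67% of probe sets were called higher in tumors 1, 2 and 3. The call of Mpo held in each of the 20 alternatives run for the comparison of tumors with parental cells, at 4.85 to 7.18.

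Prtn3 differed from Mpo in that the parental cells already gave a clear signal. It stood at 724.5 and 162 on the 2 parental arrays, at 1269 and 1091 in tumor 1, at 1936 and 1600 in tumor 2 and at 2100 and 2512 in tumor 3. All 6 tumor arrays were above both parental arrays, but the parental arrays themselves lay further apart than any duplicate pair of a tumor. The difference of tumors from parental cells was 2.22 ± 0.58 (SE, n = 3 tumors and 2 arrays), which did not pass over all probe sets (limma's adjusted p = 0.159). It was 3.25 against the second parental array alone and 1.20 against the first, which again leaves 1 parental array without a spread of its own, with adjusted p of 0.119 and 0.249. Against both parental arrays the single tumors gave 1.71, 2.29 and 2.67, with adjusted p of 0.158, 0.128 and 0.0594, so none passed. Without parental replicate 1, all 3 single-tumor differences passed, at 2.74 to 3.70 (adjusted p of 0.00234 to 0.00918), and without parental replicate 2 that of tumor 3 did (1.64, adjusted p = 0.0441). In these fits the lone parental array is assumed to vary like the tumors' duplicates, which for Prtn3 lay far closer together than the parental ones, so these passes take no account of the parental spread. With the array number as a replicate block, Prtn3 passed over the 3 tumors (adjusted p = 0.0154) and in tumors 2 and 3 (0.0434 and 0.0214).

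Ms4a3 was near the floor in the parental cells, low in tumor 1 and high in tumors 2 and 3. Its parental signals were 18.7 and 16.9, those of tumor 1 were 101 and 161, those of tumor 2 were 1105 and 1313 and those of tumor 3 were 628 and 1853. Every tumor array exceeded both parental arrays, and the 4 arrays of tumors 2 and 3 exceeded both arrays of tumor 1. The overall difference of 4.10 ± 0.88 (SE), whose error includes the spread between tumors, did not pass (adjusted p = 0.12). Without tumor 1, the low one, it was 5.10 ± 0.18 and passed (adjusted p = 0.000825), but this leaves out much of the spread between tumors. Of the 20 alternatives run for this comparison, Ms4a3 passed in 3 and did not in 17. Taken singly, tumors 2 and 3 rose by 5.17 ± 0.45 and 5.02 ± 0.45 (adjusted p of 0.00172 and 0.00115), and tumor 1 differed by 2.09 ± 0.45 without passing (0.0557).

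Elane gave a low signal on all arrays. The parental arrays gave 8.74 and 13.6, tumor 1 gave 21.6 and 33.8, tumor 2 gave 57.2 and 35.8 and tumor 3 gave 27.1 and 46.4. The lowest tumor array was above both parental arrays, tumor 2 lay above tumor 1, and tumor 3 overlapped both. The difference of 0.93 ± 0.20 (SE) did not pass (adjusted p = 0.121), and it ran from 0.42 with a pseudocount of 64 to 1.60 with a pseudocount of 1. None of the single tumors passed, at 0.68, 1.19 and 0.94 (adjusted p of 0.244, 0.115 and 0.153).

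Ctsg did not follow the other members. It stood at 28.5 and 72.4 on the parental arrays, at 356 and 224 in tumor 1, at 49.8 and 122 in tumor 2 and at 28.2 and 26.7 in tumor 3. Tumor 1 lay above the parental cells, tumor 2 overlapped them, and both arrays of tumor 3 lay below both parental arrays. Over the 3 tumors the difference was 0.78 ± 0.75 (SE, adjusted p = 0.667). Tumor 1 rose by 2.25 ± 0.43 (adjusted p = 0.0383), whereas tumors 2 and 3 differed by 0.60 ± 0.43 and -0.53 ± 0.43 (adjusted p of 0.669 and 0.654). The call in tumor 1 was lost without parental replicate 1 (1.76, adjusted p = 0.171), without parental replicate 2 (2.75, 0.063), when all probe sets were tested (0.0778) and with a pseudocount of 1 (0.0806).

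**Figure D1:**
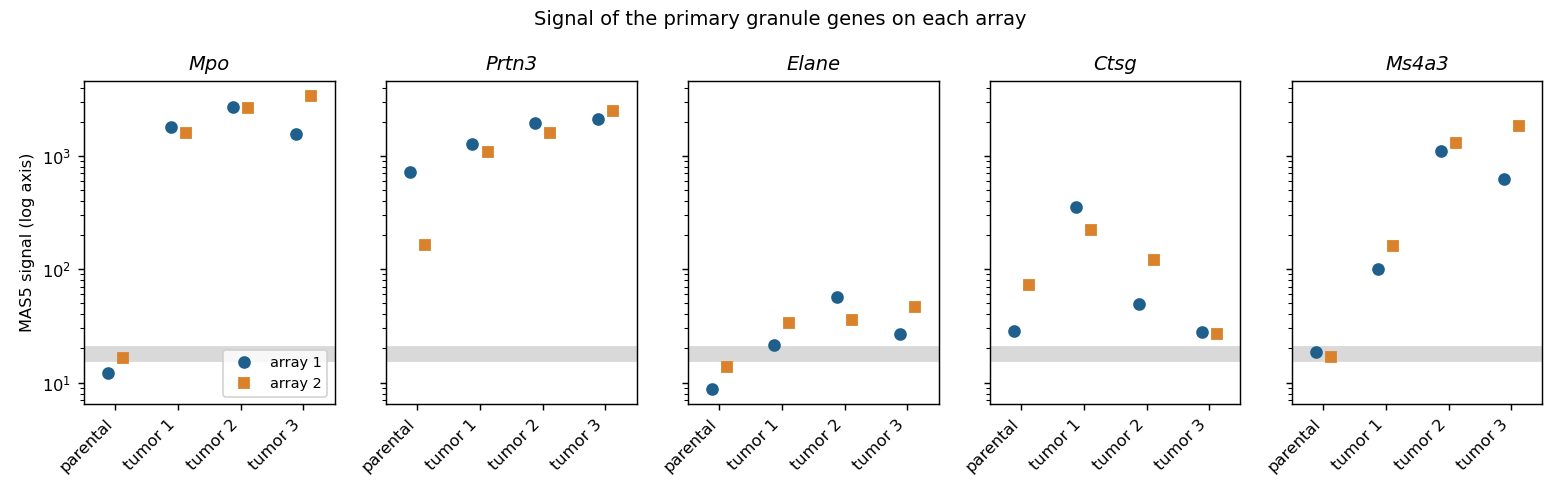
MAS5 signal (log axis) of the 5 genes on each of the 8 arrays, with circles for the first and squares for the second array of a source; the grey band spans the 40th percentiles of the arrays, 15.6 to 20.7. Mpo, Prtn3, Ms4a3 and Elane lie above both parental arrays on all 6 tumor arrays, whereas Ctsg does so only in tumor 1 and on the second array of tumor 2.

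The promoters of the 5 genes are shown so that the 4 that lay above parental cells on every tumor array can be read beside Ctsg, which did not. Each is the 250 bases before the annotated start. They were read from RefSeq on GRCm38.p6, at chr11:87793534-87793783 on the plus strand for Mpo, chr10:79879417-79879666 (plus) for Prtn3, chr10:79886062-79886311 (plus) for Elane, chr14:56102575-56102824 (minus) for Ctsg and chr19:11640852-11641101 (minus) for Ms4a3. They are written 5′ to 3′ in the direction of the gene, with each match to GAGGAA or GAGGAAGT, purine-rich letters known from PU.1 sites, in capitals.
Mpo: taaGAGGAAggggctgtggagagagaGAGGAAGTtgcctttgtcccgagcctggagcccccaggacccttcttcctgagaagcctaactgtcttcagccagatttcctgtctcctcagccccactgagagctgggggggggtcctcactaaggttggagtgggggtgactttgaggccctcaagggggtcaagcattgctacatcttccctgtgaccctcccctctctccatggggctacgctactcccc
Prtn3: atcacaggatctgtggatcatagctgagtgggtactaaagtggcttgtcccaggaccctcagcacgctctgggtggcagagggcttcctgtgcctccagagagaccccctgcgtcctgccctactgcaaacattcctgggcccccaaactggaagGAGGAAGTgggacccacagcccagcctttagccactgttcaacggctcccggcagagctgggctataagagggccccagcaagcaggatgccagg
Elane: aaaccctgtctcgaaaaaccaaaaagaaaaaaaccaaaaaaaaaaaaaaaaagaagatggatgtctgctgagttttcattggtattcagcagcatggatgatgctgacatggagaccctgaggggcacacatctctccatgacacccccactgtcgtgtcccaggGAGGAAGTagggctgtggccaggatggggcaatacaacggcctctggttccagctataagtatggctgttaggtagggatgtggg
Ctsg: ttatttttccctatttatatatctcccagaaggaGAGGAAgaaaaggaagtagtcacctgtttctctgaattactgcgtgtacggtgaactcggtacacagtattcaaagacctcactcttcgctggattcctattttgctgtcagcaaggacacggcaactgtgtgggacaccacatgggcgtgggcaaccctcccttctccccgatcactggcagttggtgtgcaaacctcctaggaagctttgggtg
Ms4a3: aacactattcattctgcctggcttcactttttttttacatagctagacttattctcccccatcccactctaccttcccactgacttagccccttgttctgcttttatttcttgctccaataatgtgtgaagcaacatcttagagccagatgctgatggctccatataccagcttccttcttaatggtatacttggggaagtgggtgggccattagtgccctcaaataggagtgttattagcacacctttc
The letters GAGGAAGT, searched on both strands, occurred in the windows of Mpo, Prtn3 and Elane and in 2.4% of the 32851 windows of that length. In Prtn3 and Elane, the adjacent pair, the match began at positions -95 and -85 from the start, and in Mpo at -224. The shorter GAGGAA, which the longer motif contains, also occurred in Ctsg and was found in 23.3% of all windows. Ms4a3 held neither, although it too lay above both parental arrays on every tumor array, so that the matches did not divide the genes as their signals did. TATAA stood at -32 in Prtn3 and at -31 in Elane, and on the opposite strand at -236 in Ctsg, against 22.8% of windows. The C/EBP letters TTGCNNAA were in none of the 5 windows and in 9.6% of all, the RUNX letters TGTGGT in Ctsg and in 14% of all, and the MYB letters AACNG in each member but Ms4a3 and in 74.2% of all. The motifs were chosen after the sequences had been seen. A match is a description of letters and not of binding.

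Of the 5 members, 4 had all 6 tumor arrays above both parental arrays, a separation found for 9.35% of the probe sets tested. The genes were chosen with earlier results of these data known, and Elane was tested only through its tumor arrays, so this count is a description. The median difference of the 5 members was 2.22, against 0.0080 over all probe sets tested. The array number bears on these counts, because arrays of the same number deviated together across sources. With all 8 arrays and the array number as a replicate block, Mpo, Prtn3, Ms4a3 and Elane passed (adjusted p of 3.36e-05, 0.0154, 0.00038 and 0.0286), and Ctsg did not (0.163). That fit called 7.4% of all probe sets higher, and its error is the spread between duplicate arrays rather than between mice. In the single tumors the block added calls for Ms4a3 in tumor 1 (adjusted p = 0.0127) and Elane in tumor 2 (0.0429) beside those of Prtn3, where 6.9%, 3.51% and 5.23% of probe sets were called higher in tumors 1, 2 and 3. Among arrays of number 1 alone Mpo was 6.14 higher, Prtn3 1.24, Ms4a3 3.66, Elane 0.99 and Ctsg 1.21. Among arrays of number 2 alone the same differences were 6.24, 3.21, 4.53, 0.88 and 0.34, and Mpo passed in both (adjusted p of 0.0225 and 0.0352). These fits hold 1 parental array each, which is assumed to vary like the tumors.

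**Figure D2:**
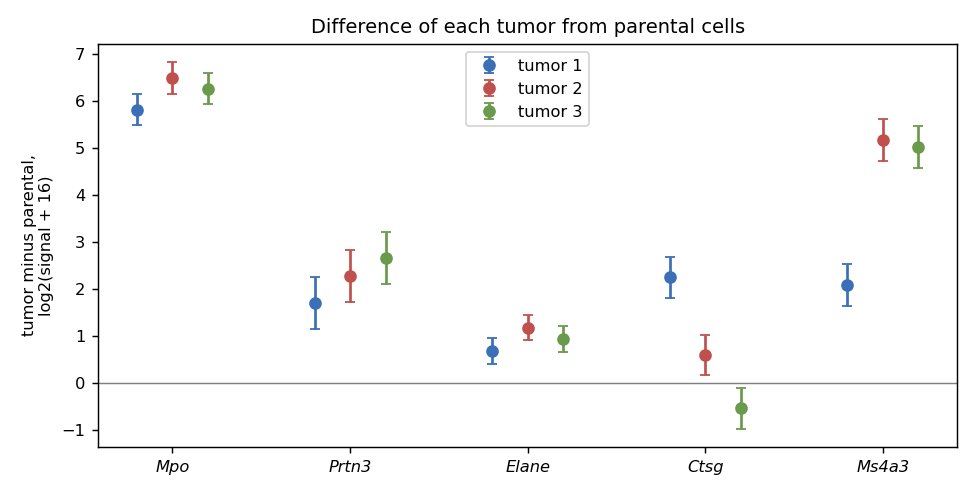
Difference of each tumor from the parental cells on the scale of log2(signal + 16), as limma estimate ± SE from the fit of all 8 arrays (2 arrays per source). Mpo lies at 5.82 to 6.49 in the 3 tumors, Ms4a3 is lower in tumor 1 than in tumors 2 and 3, and Ctsg falls from 2.25 in tumor 1 to -0.53 in tumor 3.

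Ms4a3 differed among the tumors and Ctsg between tumors 1 and 3, with tumor 1 lowest in Ms4a3 and highest in Ctsg. By limma's F test over the 3 tumors, with the spread between duplicate arrays as error, Ms4a3 passed (F = 29.6, adjusted p = 0.029) and Ctsg narrowly did not (F = 20.9, adjusted p = 0.0531). With the replicate block both passed (adjusted p of 0.00689 and 0.0233). In that test 1.26% of all probe sets passed, and 5.28% with the block. Ms4a3 was higher in tumor 2 than in tumor 1 by 3.08 ± 0.45 and in tumor 3 than in tumor 1 by 2.93 ± 0.45 (adjusted p of 0.0318 and 0.0313). Ctsg was lower in tumor 3 than in tumor 1, with a log2 difference of -2.78 ± 0.43 (adjusted p = 0.0325). Its contrasts of tumor 2 against 1 and of tumor 3 against 2 did not pass (adjusted p of 0.194 and 0.645). These pairwise contrasts called 0.739%, 0.98% and 0.524% of probe sets for tumor 2 against 1, 3 against 1 and 3 against 2. Mpo, Prtn3 and Elane gave F of 2.11, 1.51 and 1.71 (adjusted p of 0.692, 0.773 and 0.743), which at 2 arrays per tumor does not show that the tumors were alike in them. Over the 6 tumor arrays, which share 3 sources, the log2 values of Ctsg correlated at -0.938 with Prtn3 and at -0.819 with Ms4a3, whereas Mpo and Ms4a3 correlated at 0.796. These coefficients are a description of few points.

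Fcer1a, Mcpt8 and Cpa3 of the mast cell and basophil list were higher on both arrays of tumor 1, where Ctsg was highest, than in the other tumors. So was Hdc, at 3.03 and 13.8 against at most 2.59, but it was below the testing limit. Cyp11a1, at 1273 and 1545 in tumor 1, overlapped tumor 3 (793 and 1510). The remaining genes of that list overlapped another tumor or were lower. By the rule for likeness, the 3 probe sets whose log2 values over the 8 arrays correlated best with Ctsg were both of Asns, the asparagine synthetase gene (r = 0.953 and 0.945), and that of Fcer1a, the alpha chain of the IgE receptor (r = 0.918). Fcer1a stood at 2.1 and 189 on the parental arrays, at 5067 and 6654 in tumor 1, at 22.2 and 50.9 in tumor 2 and at 19.3 and 16.3 in tumor 3. Mcpt8, a basophil protease gene that lies directly next to Ctsg on chromosome 14, stood at 10.1 and 48.8, at 80.9 and 116, at 5.51 and 19.3 and at 1.87 and 3.16 on the same arrays. For both genes tumor 1 lay above all other arrays, and the second parental array came next. The summed signal of the 11 mast cell and basophil genes with a probe set was 1435 and 6241 in parental cells, and 8602 and 11860 in tumor 1. It was lower in tumor 2, with 2569 and 3794, and in tumor 3, with 2942 and 4048. Most of the tumor 1 sum was Fcer1a, and without it the other 10 genes summed to 3535 and 5204 in tumor 1, within the 1433 and 6052 of parental cells. Gata2, at 1678 and 1471 in tumor 1, was lower there than in tumors 2 and 3 (1945 to 2040). Cma1, a mast cell chymase, was at 156 and 294 in tumor 1, below the 2047 of the second parental array. Of these genes 6 were tested, and 0 passed between tumors and parental cells by limma. Tpsb2, Mcpt4 and Ms4a2 of that list were below the testing limit. The part of such cells in the Ctsg signal was not tested.

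**Figure D3:**
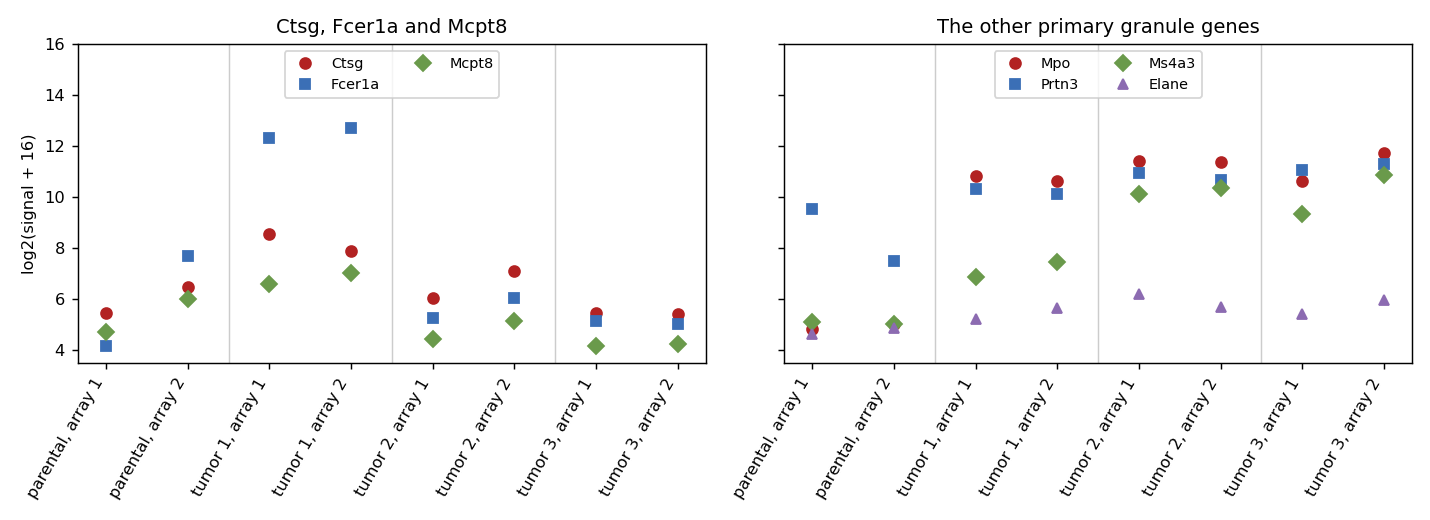
Values of log2(signal + 16) on the 8 arrays, with Ctsg, Fcer1a and Mcpt8 on the left and the other 4 members on the right; vertical lines divide the sources. Ctsg, Fcer1a and Mcpt8 are highest in tumor 1 and low in tumor 3, whereas Ms4a3 is lowest in tumor 1 among the tumors.

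The duplicate arrays of the tumors gave like values for Prtn3, and for Mpo in tumors 1 and 2. From the first to the second array Mpo differed by -0.19, -0.031 and 1.12 in tumors 1, 2 and 3 and by 0.20 in parental cells. Prtn3 differed by -0.22, -0.27 and 0.26 in the tumors and by -2.05 in parental cells. For Prtn3 the parental gap was therefore the exception, and the tumor gaps were small. Ms4a3 was higher on the second array in all 3 tumors, by 0.59, 0.25 and 1.54, against -0.077 in parental cells. Over the 3 tumors none of the 5 members passed limma's test of second against first array, in which 5.69% of all probe sets passed. The lowest adjusted p was that of Ms4a3 (0.79 ± 0.25, adjusted p = 0.102). Whether the gap differed between tumors and parental cells was tested against the lone parental gap, and 0 of all probe sets passed by limma (0%), with 5.7% at an unadjusted p under 0.05. Prtn3 had the largest such difference of the members, 1.98 ± 0.30. In simulated data this fit recovered 0% of planted log2 differences of 2 and 74% of those of 4. The absence of calls therefore does not show that the gaps were alike.

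Some genes of late granules and of macrophages did pass between the same arrays, as did genes of other lists. Of 7 tested progenitor and promyelocyte markers, Fcgr3 (1.95, limma's adjusted p = 0.0361) and Cd33 (1.94, 0.0456) were higher on the second arrays. Their parental gaps were 1.96 and -0.55. The mast cell, transcription factor and cytokine receptor lists held 2 higher genes each, of 6, 12 and 9. The packaging and lysosomal lists held 1 each, of 9, and the eosinophil list 0 of 5. In the list of late granule and mature neutrophil genes 3 of 12 tested genes were higher on the second arrays, namely Ngp, S100a9 and Ncf4, and in the macrophage and monocyte list 5 of 9 were, namely Lyz2, Cd14, Itgam, Adgre1 and Csf1r. Some of these genes were also higher on the second parental array, Ncf4 by 1.66 (0.53 to 0.82 in tumors), Csf1r by 4.37 and Adgre1 by 1.16, whereas the parental gap was -0.021 for Ngp, 0.27 for S100a9, -0.080 for Lyz2, 0.071 for Cd14 and -0.13 for Itgam. Ngp, a protein of secondary granules, stood at 599 and 5263 in tumor 1, at 94.0 and 1068 in tumor 2 and at 714 and 2170 in tumor 3. Over the tumors its second arrays were higher by 2.66 (adjusted p = 0.0286). The median gaps of the 12 late granule genes were 2.03, 0.78 and 0.47 in tumors 1, 2 and 3, against -0.19, -0.031 and 0.54 for the 5 members and -0.0030, -0.011 and -0.014 over all probe sets. No member or late granule gene was called between first and second arrays with a pseudocount of 1, without the filter or with a trended prior, where the count over all probe sets was 0.

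**Figure D4:**
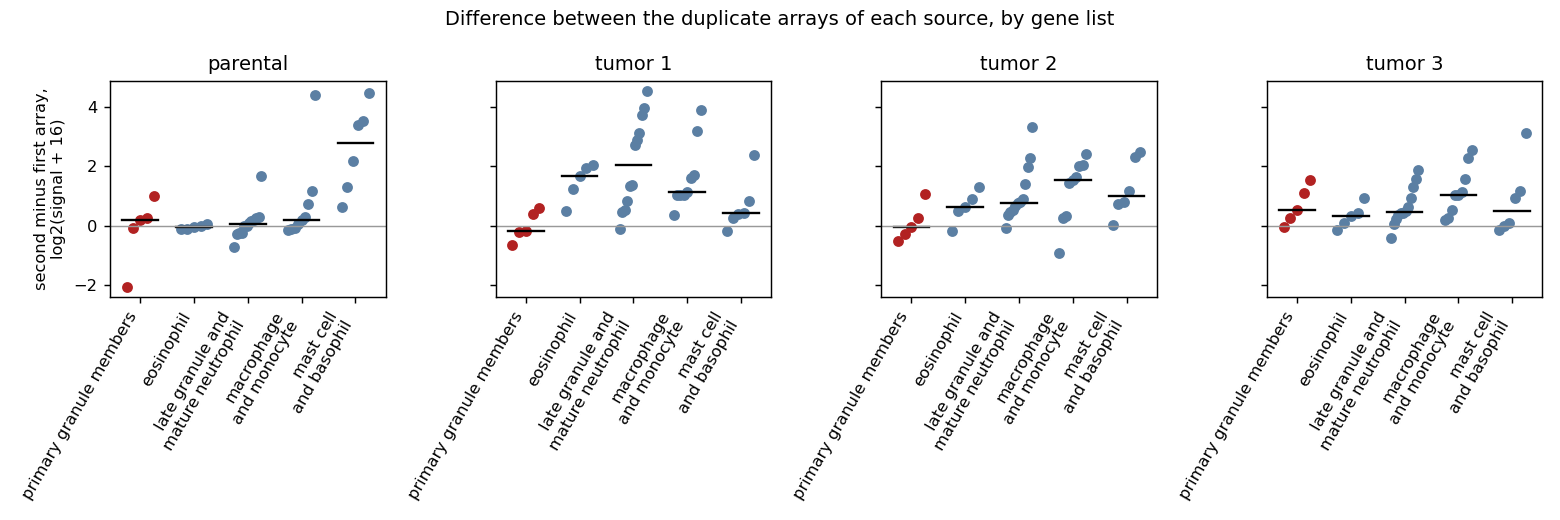
Second minus first array of each source on the scale of log2(signal + 16), with 1 point for each tested gene and a line at the list's median. The 5 members (red) have medians of 0.20, -0.19, -0.031 and 0.54 in parental cells and tumors 1, 2 and 3. The late granule list reaches a median of 2.03 in tumor 1, and the mast cell and basophil list one of 2.78 in parental cells.

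Some genes known from other myeloid cells rose with Mpo. In the eosinophil list Epx, the peroxidase of eosinophil granules (7.05 ± 0.19, adjusted p = 7.43e-05), and Prg2, their major basic protein (5.78 ± 0.63, 0.0181), rose, which made 2 of 5 tested genes. Both were below the 40th percentile on both parental arrays. Like Elane, they were tested only through the tumor arrays, so this count is a description. Epx passed in all 20 alternatives, but Prg2 was lost with a pseudocount of 64 (adjusted p = 0.0667), without the filter (0.0836) and without either parental array (0.142 and 0.155). The summed signal of the 7 eosinophil genes with a probe set was 45.6 and 40.2 in parental cells. It lay between 3707 and 8266 on the tumor arrays. Most of it was Epx and Prg2, at 3260 and 346 for the lowest tumor sum and at 3950 and 3977 for the highest. The eosinophil receptor genes Ccr3 and Il5ra were below the 40th percentile on all 8 arrays. Of 12 tested late granule and mature neutrophil genes 1 rose, Ngp (4.50 ± 0.64, adjusted p = 0.0414), a call that was lost in at least 14 of 20 alternatives (without tumor 1 at 0.0754, without tumor 3 at 0.0907, without either parental array at 0.181 and 0.187), with a median of 1.21 and a summed signal of 857 to 1487 in parental cells and of 1056 to 10410 in tumors. On the second array of tumor 1, Ngp alone gave 5263 of the highest sum. Camp, Cybb and Mmp8 of that list were below the testing limit. Ltf, Lcn2, S100a8, S100a9 and Cd177 were below the 40th percentile on both parental arrays. They were tested only through the tumor arrays, so the median of this list is a description. Of 9 tested macrophage and monocyte genes 3 rose by limma, Lyz2, Ccr2 and Cd14. Cd14 was lost with a pseudocount of 64 (adjusted p = 0.0832) and without the filter (0.0891), and Ccr2 without the filter (0.0554). Both were also lost without either parental array. Ccr2, Cd14, Fcgr1, Itgam and Vcam1 were below the 40th percentile on both parental arrays. They too were tested only through the tumor arrays, so the count and median of this list are a description. In 9 of 20 alternatives fewer than 3 genes of the list passed. The list had a median of 0.72 and a summed signal of 199.5 to 917 in parental cells and of 829 to 3284 in tumors, ranges that overlap. Marco, C1qa and C1qc were below the limit. With the replicate block these lists gave 5 of 5, 4 of 12 and 6 of 9 genes higher, against 7.4% of all probe sets. All 5 tested eosinophil genes were below the 40th percentile on both parental arrays. They were tested only through the tumor arrays, so these counts are a description. Of the T and NK cell list 1 of 3 tested genes rose, Cd3g (4.46 ± 0.25, adjusted p = 0.00112, and 0.0561 without parental replicate 2), and of the erythroid and the spleen stroma lists 0 of 6 and 0 of 5 passed by limma (3 and 2 at an unadjusted p under 0.05). Whether cells of these types were present was not tested, nor was their part in the signal of Mpo. Of the B lineage genes that define pro-B cells, Pax5, Ebf1, Vpreb1, Rag1 and Rag2 were below the testing limit, while Cd79b passed with a change of 1.31 ± 0.19 (adjusted p = 0.0414). That call was lost in at least 11 of 20 alternatives, among them whichever tumor was left out (0.103 to 0.122). Cd79a had a change of 0.97 (0.156).

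Genes that make up, load or mature the granule did not pass with Mpo. In simulated data the comparison of tumors with parental cells recovered 33.5% of planted log2 changes of 1 and 91.5% of those of 2. The simulated noise was the spread between duplicate arrays, with no spread between tumors. The real comparison also carries the spread between tumors, so it can recover less than these shares. A count of 0 here or in the lists that follow therefore does not show that such genes stayed unchanged. Of 9 tested genes of granule packaging and protease maturation 0 passed by limma (2 at an unadjusted p under 0.05, as did 15.5% of all probe sets), with a median of 0.29. Calr, the calreticulin that chaperones the myeloperoxidase precursor, had a change of 0.69 (adjusted p = 0.12), Slpi, an inhibitor of elastase and cathepsin G, 0.98 (0.306), and the chaperone gene Canx 0.29 (0.402). Ctsc, the activator of the granule proteases, and Srgn, the proteoglycan that holds their cargo, were already at 1196 and 1224 and at 3017 and 3838 on the parental arrays, and changed by 0.24 (0.626) and 0.33 (0.416) without passing. Of 9 lysosomal enzymes that primary granules also hold 0 passed (4 at an unadjusted p under 0.05), with a median of 0.52. Of them 8 lay above 0, as did 7607 of the 14893 probe sets tested. Ctsz had a change of 0.92 (adjusted p = 0.133), Hexa of 0.79 (0.226) and Gusb of 0.58 (0.23). With the replicate block 3 genes of the first list were higher and 1 lower, and 6 of the second were higher, where 13.1% of all probe sets passed.

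Heme synthesis, which supplies the cofactor of myeloperoxidase, held 0 of 7 tested genes that passed by limma, with 1 at an unadjusted p under 0.05. That gene was Alas1, the first enzyme of the pathway outside red cells, at 121 and 101 in parental cells, at 559 and 828 in tumor 1, at 220 and 298 in tumor 2 and at 382 and 428 in tumor 3. All 6 tumor arrays of Alas1 were above both parental arrays, with a difference of 1.77 ± 0.37 (SE) that did not pass (adjusted p = 0.118). Fech, which inserts the iron, had a change of -0.29 (0.632) and Alad one of 0.46 (0.711), and the list's median was -0.11. With the block 1 gene of the list was higher.

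Among 12 tested myeloid transcription factor genes 0 passed by limma, with 2 at an unadjusted p under 0.05 and a median of 0.23. Spi1, which encodes PU.1, stood at 134 and 152 in parental cells, at 308 and 588 in tumor 1, at 234 and 373 in tumor 2 and at 196 and 355 in tumor 3. Its difference was 1.09 ± 0.23 (SE, adjusted p = 0.116), again with every tumor array above both parental arrays. Gata2, known from progenitors and mast cells, had a change of 0.97 (0.141) and Myb, a regulator of immature cells, of 0.40 (0.324). Cebpa, Gfi1 and Irf8 were below the testing limit. With the block 3 of these genes were higher and 1 lower. Of 9 myeloid cytokine receptor genes 0 passed (1 at an unadjusted p under 0.05), with Cxcr4 at 0.93 (0.138), Il6ra at 0.42 (0.371) and Csf2rb at -0.49 (0.546), and the block gave 1 higher. Csf3r, the receptor for granulocyte colony-stimulating factor, changed by 0.22 (0.792) and stayed between 3.78 and 29.5 on all arrays.

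Markers of granulocyte and monocyte progenitors gave 0 of 7 tested genes by limma (2 at an unadjusted p under 0.05), with a median of 0.45. All 7 lay above 0, as did 7607 of the 14893 probe sets tested. Cd33, Trem3, F13a1 and Mgst1 were below the 40th percentile on both parental arrays. They were tested only through the tumor arrays, so the count above 0 is a description. Cd33 had a change of 0.96 (adjusted p = 0.199), Trem3 of 1.02 (0.25) and F13a1 of 0.45 (0.361), and with the block 1 was higher. Plac8 was at 3249 and 4413 in parental cells and changed by 0.19 (0.666). The progenitor genes Kit and Cd34 were below the 40th percentile on all arrays. Mgst1 was at 32.5 and 547 in tumor 1 and at most at 10.6 on the other arrays, and its change of 1.17 did not pass (0.538).

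**Figure D5:**
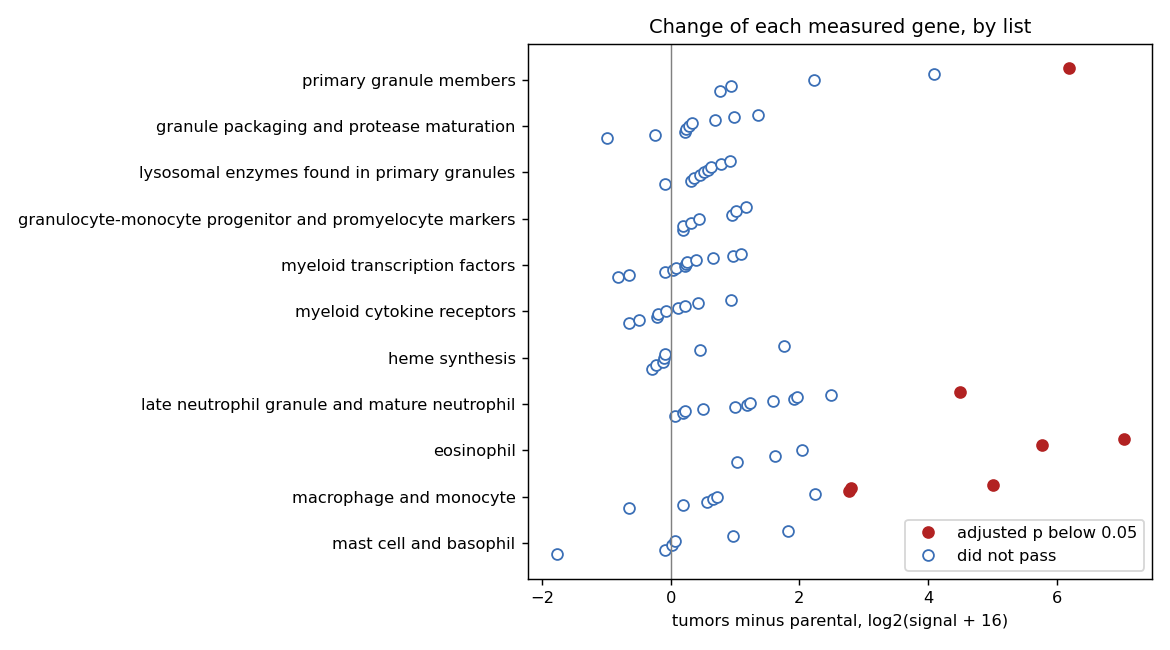
Difference of tumors from parental cells on the scale of log2(signal + 16), with 1 point for each tested gene of a list, filled where limma's adjusted p was below 0.05. Mpo at 6.19 is the filled point of the primary granule genes, and the lists of packaging, lysosomal, progenitor, transcription factor, receptor, heme and mast cell genes hold none.

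Related genes and chromosomal neighbours were compared with the members. Of the peroxidase genes, Mpo and Epx were tested and both rose, against 0.497% of all probe sets tested. Epx was tested only through the tumor arrays and Mpo is a member, so this count is a description. Lpo, which lies between them on chromosome 11, stayed at 2.47 to 4.43 on all arrays. It was below the testing limit, as was Ptgs2. In the order of protein-coding genes of the RefSeq table for GRCm38.p6, Lpo is next to Mpo and Epx is the third gene from it. Of 7 tested granule serine protease genes, 3 of them the members, and of 5 tested Ms4a genes, 1 of them Ms4a3, 0 passed by limma (2 and 2 at an unadjusted p under 0.05). Gzmb, a granzyme of cytotoxic cells, had the lowest change of the proteases, -3.09 (adjusted p = 0.345). Another neighbour of Mpo, Rnf43, had a change of 0.99 ± 0.24 (SE) that did not pass (adjusted p = 0.137). Prtn3 and Elane are adjacent on chromosome 10. Of their other neighbours within 5 genes, Palm, Misp, Ptbp1, Med16, Kiss1r and Arid3a were tested and 0 passed by limma, with changes from -0.48 to 0.86 and an unadjusted p under 0.05 for a probe set of Ptbp1 and for Arid3a. Ctsg lies among mast cell proteases and granzymes on chromosome 14, and Mcpt8 was the 1 neighbour that could be tested of 9 with a probe set, at -0.092 (adjusted p = 0.972). On chromosome 19, the Ms4a genes beside Ms4a3 were low, with Ms4a6d at 0.59 (0.208) and Ms4a6b at 0.10 (0.856). Oosp1, an oocyte-secreted protein gene that is the second gene on the other side of Ms4a3, stood at 3.61 and 11.1 in parental cells, at 8.27 and 20.4 in tumor 1, at 128 and 162 in tumor 2 and at 362 and 495 in tumor 3. Its difference was 2.47 ± 1.00 (SE) and did not pass (adjusted p = 0.304), and as for Ms4a3 the arrays of tumors 2 and 3 lay above those of tumor 1.

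Likeness was measured as the Pearson correlation over the 8 arrays among 649 probe sets with 1 symbol and a range of at least 2 on the log2 scale. It is a description, since the 8 arrays come from 4 sources. The mean of the 5 members was most like Cav2 (r = 0.991), Slc7a9 (0.988), Slfn4 (0.981), Pik3c2g (0.98), both probe sets of Prkab1 (0.979 and 0.977), Rgs10 (0.971) and Epx (0.965). Cav2, a caveolin, stood at 1.09 and 3.95 in parental cells and at 60.1 to 141 on the tumor arrays. Taken singly, Mpo was most like Slc7a9 (0.997), an amino acid transporter subunit, Slfn4 (0.988) and Prkab1 (0.986). Prtn3 was most like both probe sets of Rrm2, a subunit of ribonucleotide reductase (0.965 and 0.945), and Noct (0.946). Ms4a3 was most like Aldh1a1, a retinaldehyde dehydrogenase gene (0.976), Npr2 (0.973) and Tmem218 (0.965). Aldh1a1, also on chromosome 19, stood at 66.5 and 216 in tumor 1 and at 1017 to 1925 on the arrays of tumors 2 and 3. Elane was most like Cav2 (0.933), Tmem218 (0.91) and 2610528A11Rik (0.906).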

How the data were processed

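The deposited values are MAS5 signals, a linear intensity per probe set, made by the authors from Affymetrix arrays (MAS5 is named in the submitters' processing notes, with no version). The values themselves show that each array has the same mean of 150.06 after trimming 2% at each end, with medians of 32.4 to 37.9. With MAS5 signals the number of arrays limits precision. Symbols come from GEO's platform table: of 22690 probe sets 20380 had 1 symbol, 691 several and 1555 none, 64 controls were left out, and 20351 matched a RefSeq gene. Here signals were taken as log2(signal + 16) and tested with limma 3.58.1 in R 4.3.3 on 14893 probe sets above the 40th percentile of their array on at least 2 arrays, with Benjamini-Hochberg adjustment at 0.05.

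Tumors were compared with parental cells as 3 tumor means against 2 parental arrays, second with first arrays as 3 differences, and single tumors in a fit of all 8 arrays with the spread between duplicates as error. Array numbers were taken as pairing the arrays, because deviations of same-numbered arrays correlated at 0.435 to 0.594 in all 6 pairs of sources. Named genes are the members, the genes of each list that passed or, where none did, up to 3 with the lowest p, the neighbours with a probe set (up to 5 genes on each side), and the most like genes (8 for the members' mean, 3 for each member). Other genes named (among them Ctsc, Srgn, Csf3r, Plac8, Mgst1, Cd79a, genes that differed between first and second arrays and list genes below the testing limit) were chosen after their values were seen. The members and the gene lists were chosen with earlier results of these data known. The fits were tested on simulated data, with the spread between duplicate arrays as noise and no spread between tumors. Alternatives covered the pseudocount, filter, scaling, prior, probe sets per gene, replicate block and left-out samples.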

Additional observations from a re-analysis of the deposited data

Results flagged for a closer look

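The difference of Ms4a3 from parental cells was not the same in the 3 tumors. By limma's contrast between tumors, in which the error is the spread between 2 arrays of a tumor, Ms4a3 was higher in tumor 2 than in tumor 1 by 3.08 (adjusted p = 0.0318) and higher in tumor 3 than in tumor 1 by 2.93 (adjusted p = 0.0313). Ctsg differed the other way, with tumor 3 at -2.78 relative to tumor 1 (adjusted p = 0.0325). Each tumor came from 1 mouse, and the array numbers are shared by the tumors compared.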

How the results depend on the processing

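Against 104 probe sets called between tumors and parental cells, 45 were called with a pseudocount of 64, 22 without the filter, 66 with 1 probe set per gene, 193 with duplicateCorrelation over all 8 arrays, 1952 with the replicate block, 62 with the first arrays of the tumors only and 9 to 94 with 1 sample left out. Median centring gave 67 higher and 44 lower, against 74 and 30. Alternatives chosen after seeing the data gave 489 (all 8 arrays, no block), 5 (arrays of number 1) and 12 (arrays of number 2). Members called higher numbered 1 in the fit as designed, 4 with the replicate block, 3 with all 8 arrays and no block, and 1 to 2 with 1 sample left out. Between second and first arrays 848 probe sets became 0 with a pseudocount of 1, without the filter or with a trended prior, 2026 with a pseudocount of 64, 1917 with the filter at the 60th percentile, 529 with 1 probe set per gene and 0 to 138 with 1 tumor left out. For tumor 1 the count of 435 became 281 without the filter, 2049 with the replicate block and 105 to 147 without a parental array. For tumors 2 and 3 the counts of 190 and 318 became 813 and 1360 with the block and 85 to 102 and 144 to 170 without a parental array. Among tumors 188 became 88 with a pseudocount of 1, 87 without the filter and 787 with the block. The F test of Ms4a3 lost its call with a pseudocount of 1 (adjusted p = 0.0807) and without the filter (0.0801). Values near 0 changed sign: the gap of Mpo in tumors against parental cells was -0.10 with a pseudocount of 1, -0.033 with quantile normalization and -0.31 to 0.34 with 1 tumor left out, and that of Elane -0.30 to 0.21. With 1 tumor left out, second minus first arrays ranged from -0.11 to 0.54 for Mpo, -0.24 to 0.020 for Prtn3, -0.34 to 0.51 for Ctsg and -0.047 to 0.47 for Elane. Elane was not among the probe sets tested at the 60th percentile. The cause was not tested for any of these changes. Fits that leave out a parental array, or use arrays of 1 number, have no parental spread of their own and borrow that of the tumors. Signals near the 40th percentile limit what Elane can show.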
